A study of Mus musculus with 8 samples.

Results

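This account follows Hsd11b1 and 7 steroid receptor and target genes through RNA sequencing of single mouse hearts. The 8 genes are Hsd11b1, the receptor genes Nr3c1, Nr3c2 and Esr1, and the hormone-responsive genes Fkbp5, Tsc22d3, Zbtb16 and Sgk1. They were taken by symbol from a table of 17911 genes, and all 8 were present and passed the filter on low values. Hsd11b1 was selected on its measured difference between female and male hearts, so that difference is given as a description and is not tested. The other 7 were chosen for what they do, with results of these data known. The hearts came from wild-type C57Bl6/J mice, 4 female and 4 male, with no treatment named. The age is given as 4 weeks in the study's design and as 4 to 6 weeks in its protocol. The hour of dissection, which bears on hormone-driven genes, is not given in the sources used here.

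Glucocorticoids act on the heart through receptors that bind the hormone in the cytoplasm, enter the nucleus and raise or lower target genes. Hsd11b1 encodes the enzyme of the endoplasmic reticulum that turns inert 11-dehydrocorticosterone back into corticosterone, the main glucocorticoid of mice, so it sets hormone supply inside the cell. Nr3c1 encodes the glucocorticoid receptor and Nr3c2 the mineralocorticoid receptor. In cardiomyocytes, which lack much of the inactivating enzyme found in kidney, both receptors can be occupied by corticosterone. Esr1 encodes estrogen receptor alpha. Fkbp5 and Tsc22d3 are widely used readouts of glucocorticoid receptor activity.

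The hearts differed in depth but not in their label checks. Reads assigned to genes ran from 51.7 M to 75.7 M per heart, and female replicate 4 (51.7 M) and male replicate 5 (55.0 M) held the fewest. The cardiomyocyte myosin gene Myh6 had between 2.03 M and 2.45 M normalized reads in every heart. Xist averaged 14502 normalized reads in females and 235 in males. Female replicate 4 and male replicate 5 stood apart from the other 6 hearts for Fkbp5 and Zbtb16, so results that rest on them are also given without them.

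The stretches around listed transcription starts were searched for the letters that steroid receptors bind. Glucocorticoid and mineralocorticoid receptors bind paired AGAACA and TGTTCT letters, and estrogen receptors bind paired AGGTCA and TGACCT letters. RefSeq start windows of the GRCm38.p6 build, 300 bases each, were searched on both strands. The table held windows for 6 of the 8 members, and there was no entry for Nr3c1 or Zbtb16. The full element, AGAACA followed by 3 free bases and TGTTCT, occurred in 3 of 32851 windows (0.00913%), and 1 of those 3 belongs to Sgk1. It begins 189 bases before start 5 of the 6 listed Sgk1 starts. The single site AGAACA occurred in 19.0% of all windows and AGGTCA in 16.3%, so single sites are common. Single sites overlap the full element wherever that occurs. The first sequence is shown because it holds the full element, the second because Tsc22d3 carries a single site in window 2 of its 3 windows, and the third because Hsd11b1 is the member with the sex difference. Each is the 250 bases before the start, 5′ to 3′, with matches to the searched letters in capitals.
Sgk1, listed start 5, chr10:21993640-21993889, plus strand: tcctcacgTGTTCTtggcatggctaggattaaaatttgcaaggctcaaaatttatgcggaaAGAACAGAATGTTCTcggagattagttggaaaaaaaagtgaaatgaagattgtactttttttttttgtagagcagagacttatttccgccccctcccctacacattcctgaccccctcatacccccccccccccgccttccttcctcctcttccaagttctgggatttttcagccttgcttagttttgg
Tsc22d3, listed start 2, chrX:140600523-140600772, minus strand: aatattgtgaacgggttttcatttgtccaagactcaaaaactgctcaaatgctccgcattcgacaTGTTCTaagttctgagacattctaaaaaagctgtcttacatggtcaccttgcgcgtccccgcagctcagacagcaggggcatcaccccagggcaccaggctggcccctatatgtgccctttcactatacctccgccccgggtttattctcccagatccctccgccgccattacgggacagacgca
Hsd11b1, chr1:193242361-193242610, minus strand: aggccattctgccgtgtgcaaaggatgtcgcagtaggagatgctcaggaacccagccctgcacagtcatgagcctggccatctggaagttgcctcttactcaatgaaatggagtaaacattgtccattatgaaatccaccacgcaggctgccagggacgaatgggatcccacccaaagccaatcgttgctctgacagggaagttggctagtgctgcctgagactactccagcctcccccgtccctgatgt
The Hsd11b1 window held none of the searched letters, as did the listed windows of Fkbp5, Nr3c2 and Esr1. The Hsd11b1 window lies inside the annotated gene, whose span runs to 193264075 on the minus strand. Sequence outside the listed windows was not searched for any member. A match is a description of the letters and shows no binding.

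The 8 members spanned a wide range of levels when set per kilobase of joined exons. Zbtb16 and Tsc22d3 were highest, at means over the 8 hearts of 1094 and 1012 normalized reads per kilobase. Nr3c1 followed at 801 and Sgk1 at 633. The ranges of single hearts overlapped between Zbtb16 (375 to 2673) and Tsc22d3 (837 to 1240), and so the order of this pair is not set beyond the spread. Nr3c2 (254), Fkbp5 (163) and Hsd11b1 (135) formed a lower group. Hsd11b1 per kilobase had a female mean of 90.1 ± 7.86 (SD, n = 4) and a male mean of 180 ± 12.4 (SD, n = 4), so it lay under Nr3c2 in females (284 ± 35.6) and near Fkbp5 in males (184 ± 126). Esr1 was far lower than the rest, at 5.29. With the longest transcript as the length, 7 of the 8 changed rank, Esr1 being the exception. Zbtb16, Tsc22d3, Nr3c1 and Sgk1 had higher means than Nr3c2, Fkbp5 and Hsd11b1 with either length.

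Hsd11b1 was 1.99-fold higher in male than in female hearts, and no female heart reached the level of any male heart. The normalized read counts in female replicates 1 to 4 were 363, 406, 416 and 347. In male replicates 1, 3, 4 and 5 they were 688, 793, 771 and 805. The highest female heart lay well under the lowest male heart, with a coefficient of variation of 8.72% in females and 6.88% in males. The log2 fold change, female minus male, was -0.996 (SE 0.08) with a 95% interval from -1.16 to -0.83. These are the values that chose the gene. Among all 17911 genes, 9.35% had no overlap between the 4 female and 4 male values. Hsd11b1 was the 1 member of the 8 without overlap, by the choice of the gene. Over 20 other ways of fitting the data, its log2 fold change ran from -1.05 to -0.92, and it was -0.92 without female replicate 4 and male replicate 5. It rested on 285 to 921 recovered reads per heart.

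**Figure D1:**
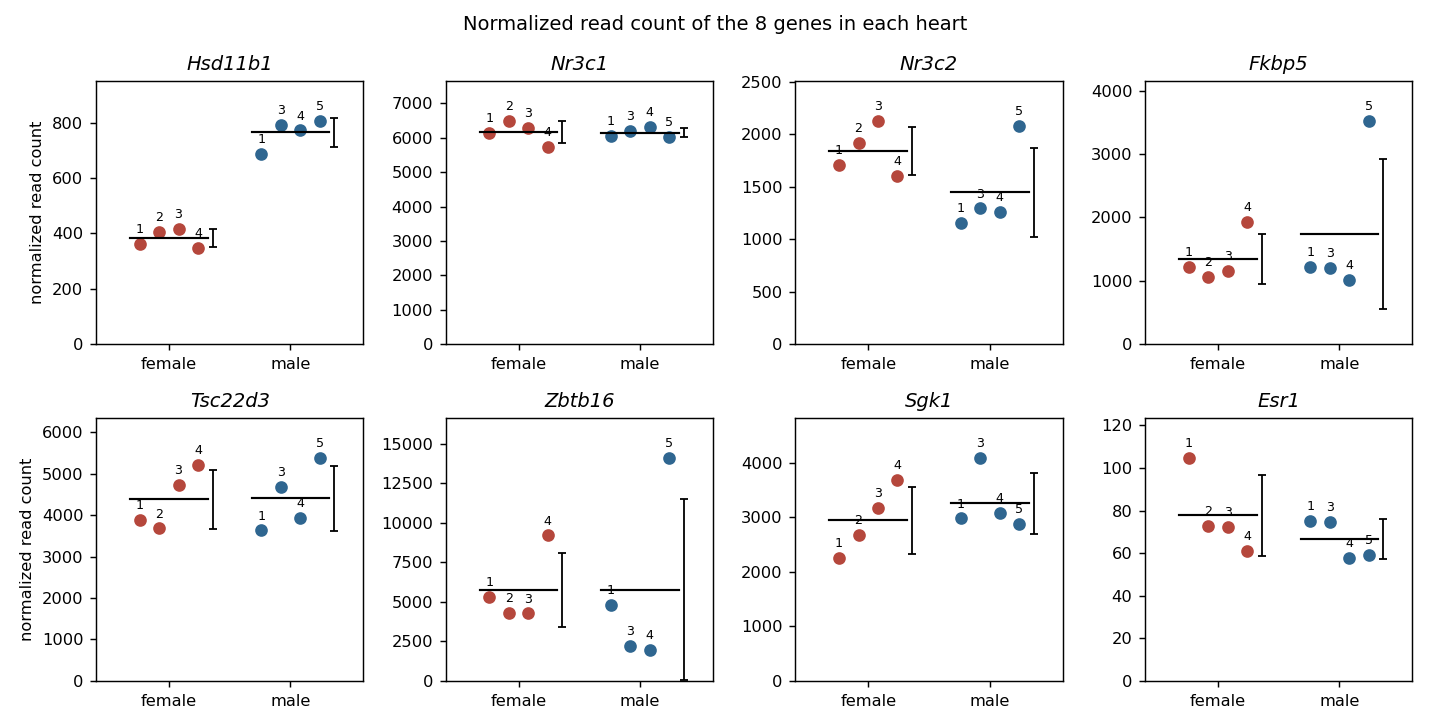
Normalized read count of each of the 8 genes (vertical axis, linear and starting at 0) in female and male hearts. Points are single hearts with their replicate number, the line is the mean and the bar beside it the SD (n = 4). Hsd11b1 separates the sexes with no overlap, while Fkbp5 and Zbtb16 are highest in female replicate 4 and male replicate 5.

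Genes around Hsd11b1 had smaller differences between the sexes, none of them called in all 8 hearts with no block. Hsd11b1 lies on chromosome 1, 193221634 to 193264075, minus strand, in the mm10 build (GENCODE vM21), with 7 annotated transcripts. Lamb3, which encodes a laminin chain, overlaps it on the opposite strand, and whether reads were counted by strand is not stated in the labels. The annotated exons of these genes share 0 bases. Lamb3 had 1376, 1439, 1450 and 1797 normalized reads in female hearts and 1311, 1213, 1279 and 1546 in male hearts, so its values leaned the other way and overlapped between the sexes. Its log2 fold change was 0.18 (limma adjusted p = 0.405). G0s2, an inhibitor of the fat-splitting lipase of adipocytes and heart, lies 8.09 kilobases away and had a log2 fold change of -0.26 (limma adjusted p = 0.273). G0s2 was called lower in females without male replicate 5 (-0.35, limma adjusted p = 0.0417), without that heart and female replicate 4 (-0.39, limma adjusted p = 0.0342) and with the block by title numbers (-0.28, limma adjusted p = 0.0471). Traf3ip3 had -0.41 (limma adjusted p = 0.315) and Camk1g, a calcium-dependent kinase gene, had 0.39 (limma adjusted p = 0.491). Diexf, A130010J15Rik and Gm37691 had log2 fold changes of 0.05, -0.00 and 0.19. None of these 7 named neighbours within 100 kilobases passed limma in all 8 hearts with no block at an adjusted p of 0.05, where 1.16% of all genes did.

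**Figure D2:**
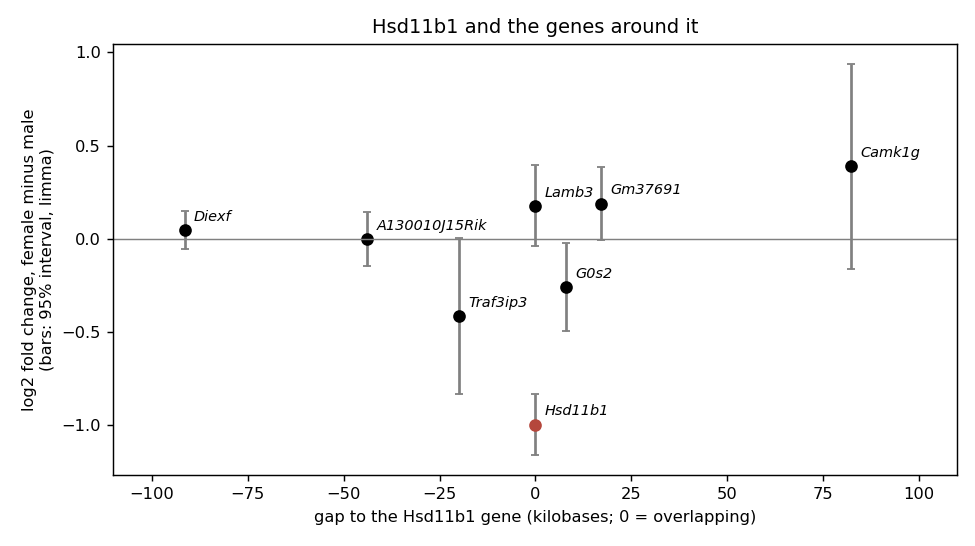
Log2 fold change, female minus male, with the 95% interval from limma (vertical axis), against the gap to Hsd11b1 in kilobases (horizontal axis, 0 for genes that overlap it). Hsd11b1, in red, sits at -0.996 and 7 neighbours between -0.41 and 0.39.

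Other genes that set glucocorticoid supply did not differ detectably. Of 7 measured genes of glucocorticoid metabolism and transport, Hsd11b1 was lower in females and the other 6 did not pass. H6pd, whose product supplies the cofactor that drives the Hsd11b1 reaction towards active hormone, had 3363, 3243, 3160 and 3565 normalized reads in females and 3151, 3100, 2910 and 3344 in males. The sexes overlapped, and the log2 fold change was 0.09 (limma adjusted p = 0.37). Abcb1a, an efflux pump that exports corticosteroids, had 0.12 (limma adjusted p = 0.375), and Akr1c14, a steroid reductase gene, had -0.09 (limma adjusted p = 0.615). The list median was 0.01, and that of all genes was 0.00. Hsd11b2, the gene of the inactivating enzyme, was not among the measured genes. Of 9 measured genes of steroid synthesis and other steroid enzymes, 0 passed in limma, edgeR or DESeq2 and 0 had an unadjusted p under 0.05 in limma. In that list Hsd17b7 had a log2 fold change of 0.13, and Star, the cholesterol carrier of steroid-making mitochondria, had 0.10. Hsd17b4 and Fdx1 had -0.04 and -0.07.

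Markers of the cell types that could carry Hsd11b1 moved in different ways. In whole-heart RNA, fewer cells of a type and less RNA per cell cannot be told apart. All 7 macrophage markers had negative log2 fold changes, and 3 of them, Csf1r, C1qa and C1qb, fell by 0.36, 0.41 and 0.39 (limma adjusted p = 0.0481, 0.0359 and 0.0493). Without 1 heart, these calls ended in 6, 7 and 7 of the 8 fits. DESeq2 called 4 of the 7, those 3 and Mrc1 (limma adjusted p = 0.0719, DESeq2 adjusted p = 0.00705). Among all genes, limma called 1.16% and DESeq2 called 690 of the 14088 with an adjusted p. The summed macrophage markers ran from 11637 to 13581 normalized reads in females and from 14589 to 17588 in males, without overlap. Fibroblast markers, from a cell type known to make Hsd11b1, summed to 82786 to 96122 in females and 88826 to 99080 in males. Of those 8 markers, 1 passed, and Lum, a matrix proteoglycan, was higher in females by 0.30 (limma adjusted p = 0.00285, called in all 8 fits without 1 heart but under neither replicate block, where the adjusted p was 0.0568 and 0.0997). Adipocyte markers, also from a cell type rich in Hsd11b1, summed to 3337 to 13722 in females and 4313 to 6543 in males, and 0 of 8 passed in limma or edgeR. DESeq2 called 1 of the 8, Cidea, a lipid droplet gene, which had 1284 to 1392 normalized reads in females and 1431 to 1902 in males, without overlap (log2 fold change -0.32, limma adjusted p = 0.0798, DESeq2 adjusted p = 0.00463). The highest adipocyte sum was in female replicate 1, whose Hsd11b1 was 363. Of 8 hepatocyte markers 4 were measured, among them Ttr at 34.1 to 106 normalized reads, and their sums overlapped between the sexes (501 to 1707 in females, 536 to 1232 in males). Of 8 cardiomyocyte markers, 4 had positive and 4 negative log2 fold changes. In limma 1 passed, Ryr2, the calcium release channel gene (log2 fold change 0.20, limma adjusted p = 0.0341), a call that ended in 7 of the 8 fits without 1 heart. DESeq2 called 2 of the 8, Ryr2 and the actin gene Actc1. Actc1 was lower in females, without overlap (log2 fold change -0.19, limma adjusted p = 0.0796, DESeq2 adjusted p = 0.00636). None of the 6 endothelial, 7 mural, 6 mesothelial and epicardial and 5 measured T cell markers passed in limma, edgeR or DESeq2. The part of any of these cell types in the Hsd11b1 difference was not tested.

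The other 7 members showed no difference between the sexes that passed the test. Of these 7, 0 were called by limma in all 8 hearts with no block, against 1.16% of all genes (0.475% higher and 0.687% lower in females), and 0 had an unadjusted p under 0.05, against 16.0% of all genes. DESeq2 and edgeR's quasi-likelihood test on the recovered reads also called 0 of the 7. With the replicate numbers of the titles as a block, limma called 1 of the 7, Nr3c2, beside 145 of all 17911 genes. In the authors' deposited table, where 4.9% of the 14088 genes with an adjusted p passed, 0 of the 7 passed, and the smallest adjusted p among them was that of Nr3c2 (0.428).

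The glucocorticoid receptor gene Nr3c1 was the steadiest member. It had 6132, 6485, 6296 and 5730 normalized reads in female replicates 1 to 4, and 6049, 6212, 6330 and 6026 in male replicates 1, 3, 4 and 5. The sexes overlapped fully, and the highest heart exceeded the lowest by 1.13-fold. Its log2 fold change was 0.00 with a 95% interval from -0.08 to 0.08 (limma adjusted p = 0.999).

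Nr3c2 was higher in all 4 female hearts than in 3 of the 4 male hearts, while male replicate 5 reached the female range. The normalized read counts were 1708, 1918, 2125 and 1607 in females and 1152, 1294, 1261 and 2077 in males. The 3 lower males lay between 1152 and 1294, under every female. In all 8 hearts the log2 fold change was 0.38 with a 95% interval from -0.10 to 0.86 (limma adjusted p = 0.423). It was called higher in females without male replicate 5 (log2 fold change 0.57, limma adjusted p = 0.0185). It was also called without that heart and female replicate 4 (0.63, limma adjusted p = 0.00618), where 1.97% of all genes were called. Over the fits that leave out 1 heart, 1 of 8 called it. The block by title numbers called it too (0.54, limma adjusted p = 0.0205), a fit in which female replicate 2 and male replicate 5 have no partner and so add nothing to the difference. A non-coding gene on the opposite strand, Gm10649, shares 247 of the 6474 annotated exon bases of Nr3c2.

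Esr1 was near the lower end of what these libraries measured. The 8 hearts gave 49 to 108 recovered reads. Normalized read counts were 105, 72.7, 72.4 and 60.9 in females and 75.0, 74.9, 58.0 and 59.1 in males. Female replicate 1 was highest and the other 3 females lay within the male range. The log2 fold change was 0.20, with a 95% interval from -0.19 to 0.59 (limma adjusted p = 0.645). Gper1, a membrane estrogen receptor gene, had a log2 fold change of -0.09 (limma adjusted p = 0.79). Of the 5 measured steroid receptor genes, 0 passed in all 8 hearts with no block in limma, edgeR or DESeq2. Their median log2 fold change was 0.20.

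**Figure D3:**
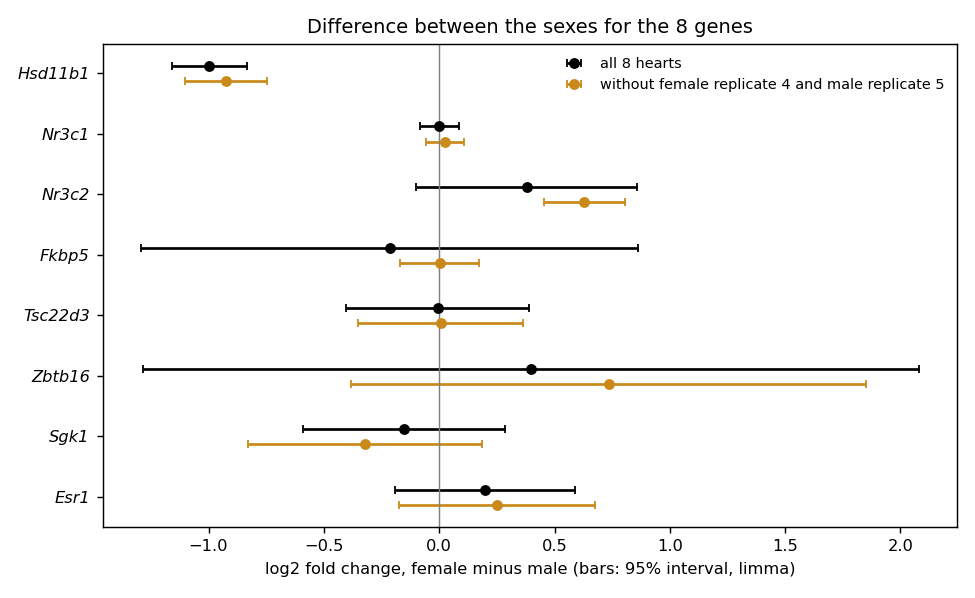
Log2 fold change, female minus male (horizontal axis), for the 8 genes, with 95% intervals from limma. Black points use all 8 hearts and orange points leave out female replicate 4 and male replicate 5. The interval of Nr3c2 lies above 0 without those hearts, and that of Fkbp5 narrows around 0.00.

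Fkbp5 and Zbtb16 varied far more between single hearts than between the sexes. Fkbp5 encodes a co-chaperone that lowers the hormone affinity of the glucocorticoid receptor and is itself induced by it. It had 1214, 1067 and 1155 normalized reads in female replicates 1 to 3 and 1934 in female replicate 4. In males it had 1224, 1204 and 1012 in replicates 1, 3 and 4 and 3519 in replicate 5. The 6 hearts other than female replicate 4 and male replicate 5 lay between 1012 and 1224 in both sexes. Female replicate 4 exceeded the next female 1.59-fold, and male replicate 5 exceeded the next male 2.87-fold. The log2 fold change was -0.21 with a 95% interval from -1.29 to 0.86 (limma adjusted p = 0.869). Without these 2 hearts it was 0.00, with an interval from -0.17 to 0.17 (limma adjusted p = 0.993).

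Zbtb16, a zinc finger transcription factor gene that glucocorticoids induce in many cell types, peaked in the same hearts. Females had 5328, 4287, 4271 and 9207 normalized reads in replicates 1 to 4. Males had 4838, 2209, 1982 and 14122 in replicates 1, 3, 4 and 5. Male replicate 5 exceeded male replicate 4 by 7.13-fold, and female replicate 4 exceeded the next female 1.73-fold. The female mean of 5773 ± 2342 (SD, n = 4) was close to the male mean of 5788 ± 5706 (SD, n = 4), while the log2 fold change was 0.40 with an interval from -1.29 to 2.08 (limma adjusted p = 0.842). Without female replicate 4 and male replicate 5 it was 0.73 (limma adjusted p = 0.468).

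Tsc22d3 and Sgk1 varied less and did not both follow the Fkbp5 pattern. Tsc22d3, also called Gilz, encodes an anti-inflammatory leucine zipper protein and is X-linked. It had 3887, 3680, 4738 and 5210 normalized reads in females and 3634, 4686, 3928 and 5383 in males. It was highest in female replicate 4 and male replicate 5, by 1.10-fold and 1.15-fold over the next heart of that sex, and its log2 fold change was -0.01 (interval -0.40 to 0.39, limma adjusted p = 0.99). Sgk1 encodes a kinase that keeps sodium channels at the membrane and is induced by glucocorticoids and aldosterone. It had 2257, 2683, 3174 and 3681 normalized reads in females and 2982, 4093, 3078 and 2878 in males. Female replicate 4 was again the highest female, but male replicate 3 was the highest male and male replicate 5 the lowest. The log2 fold change of Sgk1 was -0.15 (interval -0.59 to 0.29, limma adjusted p = 0.753).

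A wider list of 34 glucocorticoid-induced genes, the 4 hormone-responsive members among them, held few calls between the sexes, and their number depended on the tool. Limma and edgeR called 0 in all 8 hearts, and DESeq2 called 1, Klf9, beside 690 of the 14088 genes with an adjusted p. Limma with the block by title numbers called 4 (Klf9, Per1, Arrdc2 and Txnip), beside 145 of all 17911 genes. In that fit female replicate 2 and male replicate 5 have no partner and add nothing to the difference. In limma with no block 1 of the 34 had an unadjusted p under 0.05, beside 16.0% of all genes. Of the 34, 18 were positive and 16 negative, with a median of 0.04 beside 0.00 for all genes. Klf9, a transcription factor gene induced by glucocorticoids, had 8798, 8646, 9125 and 9468 normalized reads in females and 6642, 7493, 6599 and 9176 in males. As with Nr3c2, male replicate 5 alone of the males reached the female range. The log2 fold change of Klf9 was 0.28 (limma adjusted p = 0.246, DESeq2 adjusted p = 0.0499, limma adjusted p = 0.0166 with the block by title numbers), and 0.36 without male replicate 5 and female replicate 4 (limma adjusted p = 0.00598). Hif3a, a hypoxia-inducible factor gene, had 0.58 (limma adjusted p = 0.342). The muscle ubiquitin ligase gene Trim63 and the AMP deaminase gene Ampd3 had 0.07 and 0.11 (limma adjusted p = 0.337 each).

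Many of these genes were highest in the same hearts as Fkbp5. Of the 34, 12 (35.3%) had their highest female value in replicate 4 and their highest male value in replicate 5, where 8.59% of all 17911 genes did, and 0 had their lowest values in both, where 7.49% did. The 12 were Fkbp5, Zbtb16, Tsc22d3, Per1, Klf9, Klf15, Mt1, Foxo3, Cebpb, Arrdc2, Hif3a and Ampd3. Since these hearts were singled out from the members' own values, the counts describe the pattern and are not a test. Arrdc2, an arrestin-domain gene, had 1055 in female replicate 4 and 561 to 851 in the other females. In males it had 1577 in replicate 5 and 368 to 485 in the others. The clock gene Per1, also a direct receptor target, had 4085 in female replicate 4 but 4054 in female replicate 3, and 4630 in male replicate 5 against 1591 to 2436 in the other males. Klf15, a regulator of cardiac amino acid and lipid use, had 3586 in female replicate 4 (next 3377) and 4441 in male replicate 5 (next 2724).

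Several induced genes did not follow these hearts. Like Arrdc2, Per1 and Klf15, the examples were chosen after their values were seen. Pdk4, the kinase gene that shuts off pyruvate use and also answers to fasting, had 75498, 40184, 22187 and 55675 normalized reads in females and 72138, 95793, 39439 and 35965 in males. Its highest hearts were female replicate 1 and male replicate 3. Ptgds, which makes prostaglandin D and is induced by glucocorticoids in cardiomyocytes, was lowest among males in replicate 5 (9472, the others 11554 to 13765). Ddit4, an inhibitor of mTOR signalling, was highest in female replicate 4 (3375) but had 1888 in male replicate 5, below male replicates 3 and 4 (3061 and 2509).

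**Figure D4:**
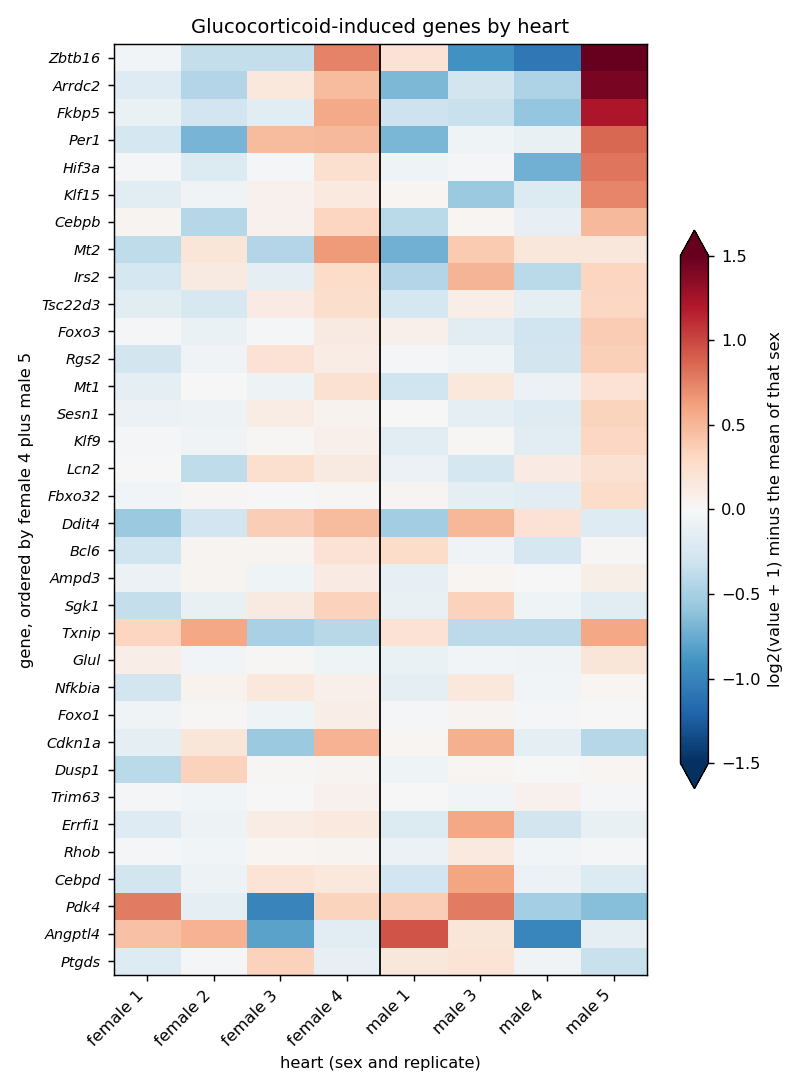
Log2(value + 1) of the 34 glucocorticoid-induced genes minus the mean of that sex (colour, limited at 1.5 either way), by heart (columns) and gene (rows, ordered by the sum of the values of female 4 and male 5). The top rows, Zbtb16, Arrdc2 and Fkbp5 among them, are red in female 4 and male 5, and rows such as Pdk4 and Ptgds are not.

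Depth also set these hearts apart, and clock genes differed in male replicate 5. Female replicate 4 and male replicate 5 were the libraries with the fewest reads, and their library codes are the ones that begin with the number 5. The clock-controlled gene Dbp had 4282, 5609, 6980 and 4283 normalized reads in females and 2435, 2454, 4143 and 6655 in males, so it was highest in male replicate 5 and in female replicate 3, not female replicate 4. The clock repressor gene Nr1d1 had 9542, 12176, 10136 and 11007 in females and 7543, 6337, 8103 and 10669 in males. Here too male replicate 5 was the highest male and lay in the female range. Of 13 measured clock genes, 0 passed between the sexes in limma, edgeR or DESeq2. With the block by title numbers 3 (Per1, Per2 and Nr1d1) passed in limma, beside 145 of all 17911 genes. Male replicate 5 has no partner in that fit and adds nothing to the difference. Of the 13, 1, Per1, was highest in both hearts (7.69%), beside 8.59% of all genes. With total reads as a covariate the log2 fold change of Fkbp5 was -0.73 (limma adjusted p = 0.107) and that of Zbtb16 was -0.37 (limma adjusted p = 0.695). The part of depth, library code or hour in the pattern was not tested.

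Lists tied to the other steroid hormones held 1 called gene. Of 13 measured estrogen-responsive genes, Ccnd1, the cyclin that starts the cell cycle, fell in females and 12 did not pass. It had 2555, 2387, 1977 and 2325 normalized reads in females and 2841, 3553, 3452 and 3259 in males, without overlap (log2 fold change -0.50, limma adjusted p = 0.0399). The call ended in 5 of the 8 fits without 1 heart (female replicates 2 and 4 and male replicates 3, 4 and 5; limma adjusted p up to 0.127), under both replicate blocks, with total reads as a covariate, and without female replicate 4 and male replicate 5 (limma adjusted p = 0.143). The median of the list was 0.14, and 6 of the 13 had an unadjusted p under 0.05 in limma, beside 16.0% of all genes. DESeq2 called 3 of the 13, Ccnd1, Cxcl12 and Rara, beside 690 of the 14088 genes with an adjusted p. Cxcl12, a chemokine gene, had a log2 fold change of 0.30 (limma adjusted p = 0.0668), and passed without the 2 hearts of code number 5 (0.36, limma adjusted p = 0.0386). Rara, the retinoic acid receptor alpha gene, and Xbp1, a regulator of protein folding, had 0.24 and 0.16 (limma adjusted p = 0.067 and 0.157). Like Ccnd1, but higher in females, Cxcl12, Rara and Xbp1 had no overlap between the sexes, beside 9.35% of all genes.

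Of 12 measured androgen-responsive genes, 0 passed in limma or edgeR. DESeq2 called 1, Slc45a3 (DESeq2 adjusted p = 0.0105), beside 690 of the 14088 genes with an adjusted p. In limma 2 had an unadjusted p under 0.05, beside 16.0% of all genes. The prostate solute carrier gene Slc45a3 had 222 to 285 normalized reads in females and 309 to 375 in males (log2 fold change -0.43, limma adjusted p = 0.0759). Eaf2, an elongation factor partner, had 29.1 to 42.6 in females and 54.0 to 59.1 in males (log2 fold change -0.61, limma adjusted p = 0.111). Both showed no overlap between the sexes. The list median was -0.05. Of the 12, 6 were highest in female replicate 4 and male replicate 5, Fkbp5 and Zbtb16 among them, where 8.59% of all genes were. Since these hearts were singled out by Fkbp5 and Zbtb16, the count describes the pattern and is not a test.

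The 13 measured mineralocorticoid-responsive genes had a median log2 fold change of 0.09. Rgs2, a brake on G protein signals, Nedd4l, a ubiquitin ligase that removes sodium channels, and the protease gene Adamts1 had 0.33, 0.09 and -0.29 (limma adjusted p = 0.373, 0.339 and 0.461). Of 16 receptor chaperone and cofactor genes, 0 passed in limma or edgeR, and 4 had an unadjusted p under 0.05 in limma, beside 16.0% of all genes. DESeq2 called 1, Fkbp4 (DESeq2 adjusted p = 0.00538), beside 690 of the 14088 genes with an adjusted p. Fkbp4, the co-chaperone that competes with the Fkbp5 product on the receptor complex, had 23824 to 25776 in females and 26407 to 27559 in males. That was a log2 fold change of -0.14 without overlap between the sexes (limma adjusted p = 0.0707). The chaperone gene Hspa8 had -0.14, and the corepressor gene Nrip1 had 0.17 (limma adjusted p = 0.179 and 0.262).

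Over single hearts, the members' deviations from the mean of their sex were compared for all 28 pairs. Deviations were used since Hsd11b1 splits the hearts by sex. Each p is two-sided and exact, over the 576 arrangements of hearts within the sexes, with 0.00174 the smallest possible. Fkbp5 and Zbtb16 moved together (Pearson r = 0.94, exact permutation p = 0.00347, adjusted over 28 pairs 0.0324, n = 8). Spearman's rho was 0.83 (exact permutation p = 0.00694, adjusted 0.0972). Without female replicate 4 and male replicate 5, the hearts farthest from the Fkbp5 median, r was 0.64, so much of the relation rests on those hearts. Nr3c1 moved against both, with r = -0.63 for Fkbp5 (exact permutation p = 0.00174, adjusted 0.0324) and -0.65 for Zbtb16 (exact permutation p = 0.00347, adjusted 0.0324). Their rho values were -0.64 (exact permutation p = 0.0382, adjusted 0.267) and -0.81 (exact permutation p = 0.0174, adjusted 0.162). Without the hearts farthest from the Nr3c1 median, female replicates 2 and 4, r was -0.65 and -0.83, and without female replicate 4 and male replicate 5 it was -0.87 and -0.75. The spread of Nr3c1 itself was small, as given above. Protein-coding genes with a mean of at least 100 were also ranked by r with Fkbp5, from the highest down. Of 12091 genes Zbtb16 ranked 64 and Nr3c1 10948, so many other genes had a lower r with Fkbp5 than Nr3c1 did.

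Over all 8 hearts Hsd11b1 showed no relation to the 4 hormone-responsive members that passed the test. Its r was -0.01 with Fkbp5, 0.21 with Tsc22d3, -0.20 with Zbtb16 and 0.04 with Sgk1. These values depended on female replicate 4 and male replicate 5, without which they were -0.50, 0.65, -0.84 and 0.82 over 6 hearts. With Nr3c2 the rho was 0.86 (exact permutation p = 0.00174, adjusted 0.0486) and r was 0.70 (exact permutation p = 0.059, adjusted 0.331). Without male replicates 3 and 5, the hearts farthest from the Hsd11b1 median, r with Nr3c2 was 0.96. By r with Hsd11b1 on deviations from the sex means, Nr3c2 ranked 506 of 12091 protein-coding genes, so many other genes had a higher r. Of the 28 pairs, 3 passed by Pearson's r and 1 by Spearman's rho, and no pair passed by both.

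The genes whose pattern was most like that of Hsd11b1 were sought among 12091 other protein-coding genes with a mean of at least 100. On log2 levels over the 8 hearts they were Nup50 (r = 0.99), Lsm3, Pdhx, Ankrd40 and Cxcl14 (r = 0.98 each), all lower in females, with log2 fold changes of -0.08, -0.21, -0.21, -0.10 and -0.70. Since the hearts split by sex, these r values mostly follow that split. On deviations from the sex means they were Rpl28 (r = 0.98), Tsen34 (0.97), Tspan31, Arfgef2 (0.96 each) and Fopnl (0.95). For Fkbp5 they were Hecw2 (r = 1.00), Bcl2l1, Nrgn, Fgfr3 and Lrrc58 (0.99 each). Hecw2, a ubiquitin ligase gene, had 1129 to 1182 normalized reads in female replicates 1 to 3 and 1588 in replicate 4, and 823 to 907 in male replicates 1, 3 and 4 and 1633 in replicate 5. Bcl2l1, which encodes the survival protein Bcl-xL, had 2760 in female replicate 4 (others 1913 to 2109) and 3549 in male replicate 5 (others 1831 to 2082). With 8 hearts and this many genes, the highest r values come out near 1 in any case, and they describe these libraries only.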

How the data were processed

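RNA from 8 single wild-type hearts was sequenced. The labels describe an extraction kit for small RNA and name total RNA as the molecule. The authors deposited normalized read counts (a signal in data terms) with a log2 fold change and p-value per gene. The genome build is mm10, per the submitters' processing notes, and the labels name no aligner, counter or strand setting. All 143288 values gave whole reads at a tolerance of 0.001 reads, with size factors from 0.821 to 1.17, and totals of 51.7 M to 75.7 M reads limit the precision of low genes such as Esr1.

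Values were compared as log2(value + 1) in R 4.3.3 with limma 3.58.1, using its trend and robust settings, female minus male, with Benjamini-Hochberg adjustment over 17911 genes and a threshold of 0.05. A filter of a value of at least 1 in 4 hearts removed 0 genes. Count tests on the recovered reads, edgeR 4.0.16 and DESeq2 1.42.0, were alternatives, and the limma scripts were tested on simulated data. IDs were matched to GENCODE vM21, and 17864 matched. The members and the 18 gene lists were chosen with earlier results of these data known. Named genes were the members, list genes that passed with up to 4 more of smallest p, neighbours within 100 kilobases and the 5 genes most like Hsd11b1 or Fkbp5. The labels describe single hearts, so p-values measure the spread between hearts of 1 sequencing batch. Results of some genes that the rule names are not reported here.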

Additional observations from a re-analysis of the deposited data

Results flagged for a closer look

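In 4 of 16 groups tested, 1 heart stood farther from the other 3 hearts of its sex than the 95% limit of Dixon's test allows, a limit that chance passes in about 1 in 20 groups. The groups draw on the same hearts, so they are not independent of each other. Fkbp5 did so in both sexes, with 1934 normalized reads in female replicate 4 and 3519 in male replicate 5. In females its gap, 0.830 of the range, lay barely over the limit, the nearest to it of the 4 groups. In males it was 0.915 of the range. Nr3c2 did so with 2077 in male replicate 5, the heart without which its sex difference was called. Sgk1 did so with 4093 in male replicate 3, a heart that did not stand apart for Fkbp5. Its gap, 0.8355 of the range, was also close to the limit. Zbtb16 did not pass in females (0.786 of the range) or in males (0.765). Why the hearts named here stood apart was not tested.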

How the results depend on the processing

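Over all genes, 208 were called. DESeq2 called 690, the replicate block by library code numbers 26, and the fits without 1 heart 77 to 516. Leaving out both hearts of library code number 5, chosen after seeing the data, gave 352. Of the 7 members other than Hsd11b1, 0 were called, and 1, Nr3c2, was called under the replicate block by title numbers (log2 fold change 0.54, limma adjusted p = 0.0205) and without the 2 code number 5 hearts. Over the fits without 1 heart, 0 to 1 were called.

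None of the uncalled differences that turned sign passed the test in any fit. Under the title block, Nr3c1, Fkbp5 and Tsc22d3 came to -0.035, 0.29 and 0.17. Under the library code block, Nr3c1 and Tsc22d3 came to -0.011 and 0.022. Without 1 heart, Nr3c1 ran from -0.025 to 0.035, Fkbp5 from -0.41 to 0.19 and Tsc22d3 from -0.096 to 0.095. Without the code number 5 hearts, Fkbp5 came to 0.0016 and Tsc22d3 to 0.0062. Zbtb16 came to -0.0036 in DESeq2 and -0.37 with total reads as a covariate. Spearman's rho passed 1 pair where Pearson's r passed 3, and 7 members changed rank with the longest transcript. The cause was not tested. The pairing check gave correlations of 0.193, -0.0738 and -0.0944 for hearts sharing a title number, and 0.193, -0.0738 and 0.193 for library code numbers. By library code, the male of the same number was the best match for female replicates 1 and 4, but not for female replicate 3. The main fit did not pair hearts by either number. Whether a shared library code marks a shared unit was not tested. With 4 hearts per sex, any difference within the interval of an uncalled gene remains compatible with its values.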
